A study of Mus musculus with 22 samples.

Results

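The cells described here are those that the authors' deposited table of final cells names Mature Somites, 9268 of 77674 cells with 25 type names in 18 lanes of 10x single-cell RNA-seq. The study sequenced gastruloids one by one to measure how much those of equal age vary. A gastruloid is a small ball of embryonic stem cells that elongates in culture and builds many tissues of the early body axis. All of them came from 1 wild-type mouse embryonic stem cell line, E14Tg2A, so that no other genetic background was measured. Per the labels' protocols, 300 cells were placed in each well, left for 48 h to aggregate and then given 3 µM CHIR99021, which blocks GSK3 and so turns on Wnt signalling. Every group compared here carried that treatment. Groups differed in the day of collection, the experiment or the class of the gastruloid, and some also in the pool in which their cells were sequenced. Up to 32 gastruloids that looked representative were picked at a collection, so the spread between them is that of a selected set.

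In 3 experiments, called MULTI-seq 1, 2 and 3, each gastruloid received its own DNA barcode on a lipid anchor before cells were pooled, and each pool was split over lanes. The replicate is the gastruloid. A barcode tied 7536 of the Mature Somites cells to 1 of 136 gastruloids, of which 81 held at least 1 such cell. The other 1732 cells carried a doublet call (916 cells), a negative call (61 cells) or no usable call (755 cells) and entered no comparison. MULTI-seq 3 held 24 day 3 gastruloids and 16 at every later time (days 3.5, 4, 4.5 and 5), with days 3.5 and 4 in one pool and days 4.5 and 5 in another. MULTI-seq 2 held 12 gastruloids each of days 4 and 4.5 in its pool B, and MULTI-seq 1 held 24 gastruloids of day 5. Days 3 and 3.5 of MULTI-seq 2 are not analysed here. Of the 9259 distinct cell barcodes, 9 occurred in more than 1 lane.

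Lanes with Mature Somites cells had a median of 7150 to 32800 unique molecular identifiers (UMIs, each counted as 1 captured RNA molecule) per such cell, with the lowest values in MULTI-seq 1 and the highest in MULTI-seq 3. The median mitochondrial share of these cells was 2.11% to 2.40% in MULTI-seq 3 lanes and 5.36% to 5.88% in the others. For gene comparisons the UMIs of a gastruloid's Mature Somites cells were summed, with a minimum of 10 cells. These sums ranged from 150517 UMIs in MULTI-seq 1 to 9581205 in MULTI-seq 3, and levels are given as CPM, the UMIs of a gene scaled to that sum in the usual way. Tests compare a gene between gastruloids and not with other genes. Where levels of different genes or marker lists stand beside each other, they are descriptions.

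Somites are paired blocks of paraxial mesoderm that bud off from the presomitic mesoderm (PSM) in a rhythm set by a Notch-based oscillator, at a front placed by Wnt, FGF and retinoic acid signals. A new somite is an epithelial ball. As it matures, its ventral part turns mesenchymal under Hedgehog signals and becomes sclerotome, the source of vertebrae and ribs, while its dorsal part stays epithelial as dermomyotome, the source of skeletal muscle and dorsal dermis. BMP signals from neighbouring tissue and Wnt signals from the dorsal neural tube and the surface pattern these parts, and the Hox genes a somite expresses record its place along the body axis.

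The name was first set against its markers. At day 5, in 39 gastruloids, Meox1, a homeobox factor of all somites (chromosome 11, 101877510 to 101894374 in mm10), stood at a median of 543 CPM, with a range of 396 to 819, and was 11.4 times its level in all other cells of the same gastruloid. Meox2, its paralog (chromosome 12, 37108540 to 37179534), stood at a median of 51.1 CPM with a range of 7.42 to 102, or 45.4 times the other cells. Pax3, a paired-box factor of dermomyotome and dorsal neural tube (chromosome 1, 78101267 to 78197134), had a median of 121.5 CPM and a ratio of 14.7. Each of these 3 was higher than in the other cells in 39 of 39 gastruloids. Igfbp5, a secreted binding protein of insulin-like growth factors (chromosome 1, 72857932 to 72874884), reached 471 CPM, but the other cells also held 146 CPM, and it was higher in 35 of 39. So Meox1, Meox2 and Pax3 set these cells apart from all other cells pooled, and Igfbp5 is shared with other types. Meox1 does not set them apart from the type named Somites, where its level was similar (values given with that comparison). These ratios describe a cluster that was drawn from the same gene values and are no test.

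Counted per cell, after each day 5 cell was thinned to 5000 UMIs, Meox1 was seen in 88.3% of Mature Somites cells of MULTI-seq 1 and 83.7% of those of MULTI-seq 3, against 4.06% and 1.24% of Late Spinal Cord cells, which should lack it. Without thinning, the Mature Somites shares were 94.5% and 98.4%, at median depths of 10030 and 24910 UMIs against 11320 and 31400 UMIs in Late Spinal Cord cells. Meox2 was seen in 21.8% and 16.2% of thinned Mature Somites cells and in 0.0615% and 0.191% of spinal cord cells. Igfbp5 was seen in 57.8% and 57.6% of Mature Somites cells, 63.2% and 50.1% of spinal cord cells, and 88.4% and 79.5% of Mature Endoderm cells. A UMI of Igfbp5 in a cell therefore does not tell these types apart. Thinning left out 58 cells of MULTI-seq 1 and 0 of MULTI-seq 3, which kept 1644 and 3190 cells.

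Markers of most other cell types were low at day 5. At day 5 in MULTI-seq 3 the summed level of 9 neural markers was 18.4 to 38.5 CPM, that of 7 endoderm markers 7.34 to 28.6 CPM and that of 5 lateral plate markers 2.45 to 8.91 CPM, while the 4 own markers summed to 867 to 1318 CPM. The 4 neural crest markers summed to 34.2 to 98.0 CPM, with a median of 74.7. Head mesoderm markers were higher, with 204 to 349 CPM; their list holds Prrx2, which was itself among the genes of highest ratio in Mature Somites cells. The blood genes Hba-a1 and Hbb-y were at 0 in all day 5 gastruloids of both experiments. At day 4 in MULTI-seq 3 the own markers summed to a median of 275 CPM, below the 697 CPM of the head mesoderm markers.

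Beside the named markers, the genes with the highest day 5 ratio to the other cells of a gastruloid were Foxd2 and its neighbour Foxd2os. Foxd2, a forkhead factor of paraxial mesoderm, stood at 53.2 CPM and 53.4 times the other cells, and Foxd2os at 72.7 CPM and 55.8 times. Foxd2os is transcribed from the opposite strand. How the counting used strand is not stated in the processing notes, and whether reads of this pair were mixed was not tested. Uncx, a homeobox factor of the posterior part of each somite, stood at 115 CPM against 4.60 CPM in other cells. Fst, which encodes the activin and BMP antagonist follistatin, stood at 310 CPM and 15.4 times the other cells, Cxcl12, a chemokine, at 208 CPM and 14.2 times, and Pdgfra, a receptor of mesenchymal cells, at 8.01 times. Cdh11, a cadherin of mesenchyme, and Prrx2, a homeobox factor of mesenchyme, stood at 10.3 and 8.20 times.

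Mature Somites cells were absent early and then took a growing share of the gastruloid. In MULTI-seq 3, 0 of 5778 cells carried the name at day 3 and 0 of 4679 at day 3.5; these counts of 0 allow shares of at most 0.0519% and 0.0641% (3 counts, counting error only). At day 4 they appeared in 10 of 16 gastruloids, with a median of 1.31% of all cells and a highest value of 26.4%. At day 4.5 all 16 gastruloids held them, from 1.64% over a median of 19.5% to 45.3%, and at day 5 the range was 11.6% to 49.0% with a median of 34.4%. MULTI-seq 2 showed 5 of 12 gastruloids with any at day 4, with a highest value of 39.6%, and 10 of 12 at day 4.5, where the median was 20.5%. In MULTI-seq 1 all 24 gastruloids of day 5 held them, from 1.96% over 15.0% to 39.4%. Gastruloids of one day thus spread over a wide range, from none to 26.4% of all cells at day 4 in MULTI-seq 3.

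**Figure D1:**
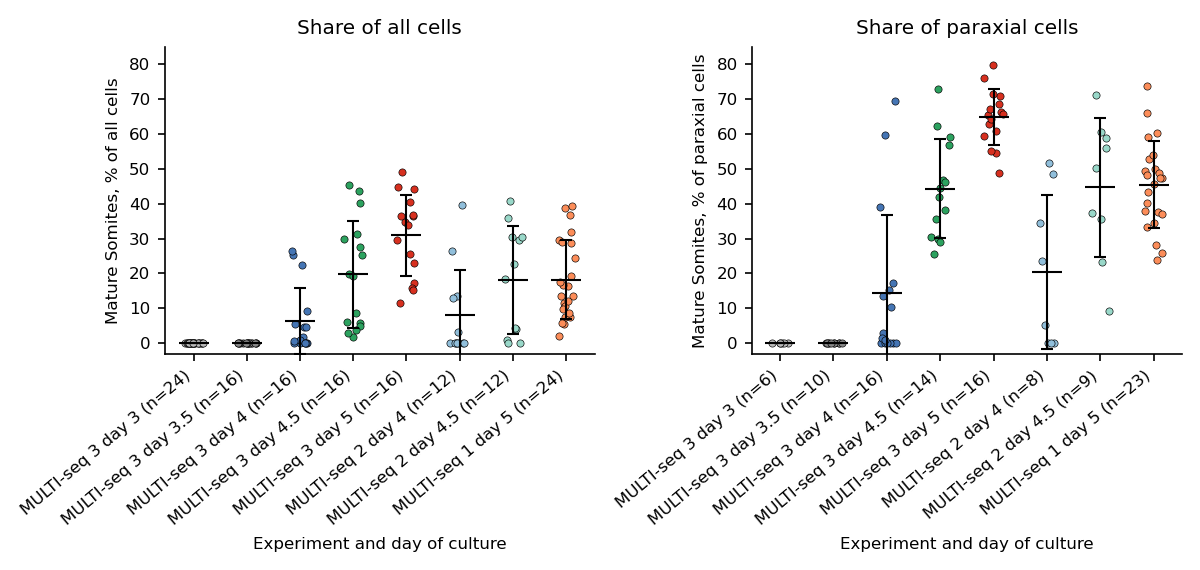
Mature Somites cells as a percentage of all cells of a gastruloid (left) and of its paraxial cells (right, gastruloids with at least 20 paraxial cells), by experiment and day. Points are gastruloids and bars give the mean ± SD; no gastruloid of day 3 or 3.5 held such a cell, and the day 5 gastruloids of MULTI-seq 3 lay between 48.8% and 79.7% of paraxial cells.

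To see maturation apart from the amount of neural or endodermal tissue, Mature Somites cells were counted as a share of the 6 paraxial types, which run from Early Posterior PSM to Mature Somites. In MULTI-seq 3 that share was 14.4% ± 22.3 (SD, n = 16) at day 4, 44.3% ± 14.2 (n = 14) at day 4.5 and 64.8% ± 7.98 (n = 16) at day 5. At day 4 it ran from 0% over a median of 2.16% to 69.5%, at day 4.5 from 25.7% over 43.2% to 72.9%, and at day 5 from 48.8% over 65.6% to 79.7%. The ranges overlapped at each step, but 14 of 14 gastruloids of day 4.5 lay above the day 4 median and 16 of 16 of day 5 above the day 4.5 median. The rise from day 4 to day 4.5 was 29.9 percentage points (permutation test, two-sided, adjusted p = 0.000507) and that from day 4.5 to day 5 was 20.55 points (adjusted p = 0.00024). Days 4 and 4.5 lay in different pools, so day and pool cannot be told apart in the first rise. The mix of neural and mesodermal gastruloids also differed between those days. Days 4.5 and 5 shared a pool. Adjusted values are by Benjamini and Hochberg over 4 comparisons.

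In MULTI-seq 2 the paraxial share went from 20.4% ± 22.2 (SD, n = 8) at day 4 to 44.7% ± 19.9 (n = 9) at day 4.5. The difference of 24.3 points passed the test (exact permutation test, two-sided, adjusted p = 0.035), with 8 of 9 gastruloids of day 4.5 above the day 4 median. It did not pass when the early PSM types were left out of the denominator, with 15.4 points and adjusted p = 0.257, or without lane 3 of the pool, with 18.7 points and adjusted p = 0.119. At day 5 the share was 45.4% ± 12.55 (SD, n = 23) in MULTI-seq 1, lower than in MULTI-seq 3 by 19.4 points (permutation test, adjusted p = 8e-05, 16 of 16 gastruloids of MULTI-seq 3 above the median of MULTI-seq 1). Cells named Somites, the step before in the paraxial series, had mean shares in these sets between 2.25% ± 3.07 and 3.78% ± 2.29 of all cells.

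Whether gastruloids rich in neural cells had less mature paraxial tissue was looked at within a day. At day 5 the share of neural cells and the Mature Somites share of paraxial cells gave r = 0.242 (permutation p = 0.365) and rho = 0.253 (p = 0.345) over 16 gastruloids of MULTI-seq 3, with adjusted p = 0.694 and 0.689. Without the 2 gastruloids farthest from the median neural share, r was −0.308. Over 23 gastruloids of MULTI-seq 1, r was 0.0859 (p = 0.694) and rho −0.0395 (p = 0.861), and r was −0.232 without the 2 farthest. No relation was detectable, and its sign rests on those gastruloids. In the other 4 sets the gastruloids fell into separate clusters and no coefficient is given.

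The authors mapped each cell onto an extended reference of mouse embryos, and those names divide the Mature Somites cells further. At day 4 in MULTI-seq 3 the most frequent name was Paraxial mesoderm, with a mean of 30.7% of a gastruloid's Mature Somites cells, while Dermomyotome took 16.45% and Sclerotome 11.85% ± 13.9 (SD, n = 7), with a median of 1.85% and a highest value of 33.6%, so that a few gastruloids carried that mean. At day 4.5 Posterior somitic tissues (26.2%), Dermomyotome (25.5%) and Sclerotome (20.5% ± 8.63) led and Paraxial mesoderm was at 9.98%. At day 5 Sclerotome led with 36.1% ± 8.25 (SD, n = 16), ahead of Dermomyotome with 26.6% ± 6.87 and Posterior somitic tissues with 25.1% ± 5.80, and Paraxial mesoderm was at 2.50%. MULTI-seq 1 at day 5 had a like share of Sclerotome, 38.0% ± 10.8 (n = 23), and of Dermomyotome, 30.1%, with Posterior somitic tissues at 11.8%. In MULTI-seq 2 Sclerotome took 15.6% at day 4 and 22.6% at day 4.5, and Paraxial mesoderm 26.7% and 13.4%. Names of head and heart mesoderm were also present. In MULTI-seq 3 Cardiopharyngeal progenitors SHF took 8.68% at day 4, 2.09% at day 4.5 and 1.01% at day 5. Cranial mesoderm took 6.13%, 7.91% and 4.94% at these days, and Pharyngeal mesoderm 3.86% at day 4. In MULTI-seq 2 Cardiopharyngeal progenitors SHF went from 3.76% at day 4 to 6.28% at day 4.5, and Cranial mesoderm from 12.9% to 7.55%. These shares were not tested, and day 4 of MULTI-seq 3 lay in another pool than days 4.5 and 5. The deposited table also maps the cells to mesoderm of the original reference, and there the order was the opposite: Dermomyotome took 59.4% ± 12.1 and Sclerotome 39.4% ± 11.99 at day 5 in MULTI-seq 3, while MULTI-seq 1 had 70.6% of Dermomyotome and 25.0% of Sclerotome. In that mapping Dermomyotome had the higher mean in all 6 sets, from 59.4% to 73.6%, so which name leads and whether the experiments are alike depend on the mapping.

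**Figure D2:**
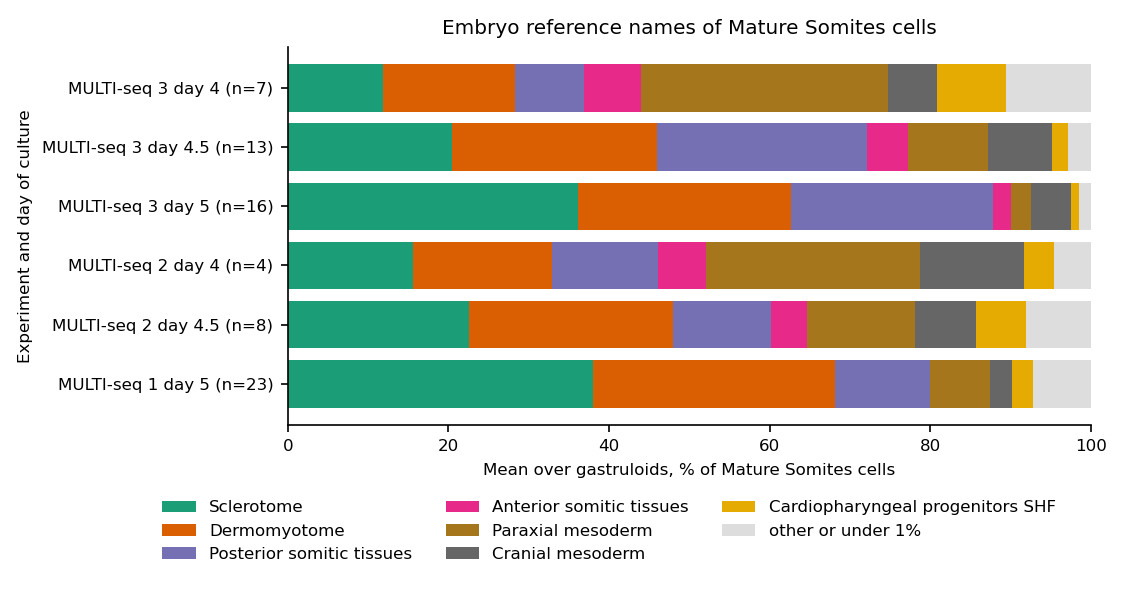
Mean percentage of a gastruloid's Mature Somites cells that the authors mapped to each name of the extended embryo reference, stacked by experiment and day over gastruloids with at least 10 such cells (4 to 23 per bar). Sclerotome goes from a mean of 11.85% (median 1.85%) at day 4 to 36.1% at day 5 in MULTI-seq 3, where Paraxial mesoderm goes from 30.7% to 2.50%.

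The mean mapped embryonic stage differed little between days, although its parts shifted. In MULTI-seq 3 the share of cells mapped to embryonic day 8.0 went from 37.7% at day 4 to 8.52% at day 5 and that of embryonic day 8.75 from 14.3% to 32.8%, while embryonic day 9.25 went from 27.7% to 12.8%; these shares were not tested. In MULTI-seq 3 the mean stage of a gastruloid's Mature Somites cells was embryonic day 8.54 ± 0.113 (SD, n = 7) at day 4, 8.51 ± 0.089 (n = 13) at day 4.5 and 8.66 ± 0.074 (n = 16) at day 5. The last step of 0.1502 days passed the test (permutation test, two-sided, adjusted p = 0.00016) and the step before, −0.028 days, did not (exact permutation test, adjusted p = 0.545). Day 4 lay in another pool than days 4.5 and 5, so day and pool cannot be told apart for that earlier step. In MULTI-seq 2 the mean stage went from 8.48 ± 0.055 to 8.60 ± 0.065 between days 4 and 4.5 (exact permutation test, adjusted p = 0.0108), a call that was lost without lane 2 of the pool (exact permutation test, adjusted p = 0.0566). MULTI-seq 1 at day 5 stood at 8.77 ± 0.064, later than MULTI-seq 3 by 0.103 days (permutation test, adjusted p = 0.00028). So MULTI-seq 1 held the smaller paraxial share of Mature Somites cells and the later mapped stage. As the share of cells at the latest reference stage, day 9.5, to which only 57 of the Mature Somites cells mapped, MULTI-seq 3 was the higher one, by 0.788 percentage points (permutation test, adjusted p = 0.00736). By that measure the steps from day 4.5 to day 5 in MULTI-seq 3 and from day 4 to day 4.5 in MULTI-seq 2 did not pass (0.0103 and 0.185 points, permutation tests, adjusted p = 1 for both).

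Against the nearest type, Somites, most Notch genes of segmentation were lower in Mature Somites cells, and the sclerotome factors Pax1 and Pax9 and the tendon factor Scx were higher. These lists did not move as a whole: the sclerotome list gene Foxd1 was lower in 25 of 25 gastruloids (124 ± 18.3 against 316 ± 82.6 CPM), and Fgf8 of the presomitic list was higher in 24 of 25 (23.0 against 6.26 CPM). The following are descriptions over 25 day 5 gastruloids that held at least 10 cells of both, since the clusters were drawn from these values. Tcf15, a helix-loop-helix factor needed for somites to become epithelial, was at 610 ± 128 CPM (SD) in Mature Somites and 1209 ± 174 in Somites, lower in 25 of 25. Genes of Notch signalling were lower in Mature Somites: Lfng, which modifies Notch, was at 2.77 ± 1.44 against 202 ± 75.5 CPM, Nrarp, a Notch feedback gene, at 16.9 against 383 CPM and Notch1 itself at 94.9 against 507 CPM. Lef1, a nuclear effector of Wnt, was at 81.7 against 394.5 CPM and Dmrt2, a factor of the early dermomyotome, at 39.96 ± 22.1 against 202 ± 63.2 CPM. Meox1 was similar, with 607 ± 134 against 603 ± 217 CPM and 15 of 25 gastruloids higher.

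Genes that were higher in Mature Somites in 25 of 25 gastruloids include those of the next fates. Meox2 was at 58.1 ± 18.2 CPM against 2.16 ± 2.50 in Somites, and Igfbp5 at 427 ± 108 against 8.41 ± 9.58. The sclerotome factors Pax1 and Pax9 were at 23.5 ± 20.4 against 0 CPM and 9.13 against 0.351 CPM, and Scx, a factor of tendon progenitors, was at 10.4 ± 4.02 against 0.294 CPM. Pax3 was at 122.8 against 54.7 CPM, so the dorsal factor was also higher after this step. Uncx, by contrast, was similar, with 113 against 101 CPM and 15 of 25 gastruloids higher.

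Against Late Anterior PSM, over 34 day 5 gastruloids, several genes of segmentation were far lower. Mesp2, which sets the segment border, was at 1.29 against 155 CPM, Ripply2, which ends Mesp2 and Tbx6 activity, at 0.86 against 327 CPM, Hes7, an oscillator gene, at 5.69 against 130 CPM, and Dll1, a Notch ligand, at 31.3 against 284 CPM. Each was lower in 34 of 34 gastruloids. Uncx was at 119 against 2.46 CPM, Cdh11 at 145 against 10.1 CPM and Bmp3 at 46.7 against 2.31 CPM, each higher in 34 of 34.

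Within the type, cells that the authors mapped to Sclerotome, Dermomyotome or Posterior somitic tissues carried different levels, compared within 22 day 5 gastruloids. Pax1 was at a mean of 30.3 CPM in Sclerotome-mapped, 12.5 in Dermomyotome-mapped and 9.50 in Posterior-mapped cells, and was higher in Sclerotome than in Dermomyotome in 20 of 22. Sox9, the master factor of cartilage, followed with 53.9, 20.4 and 10.2 CPM (21 of 22). Vcan, a matrix proteoglycan, was at 252, 173 and 130 CPM (22 of 22). Pax3 went the other way, with 104 CPM in Sclerotome-mapped and 160 in Dermomyotome-mapped cells, higher in Dermomyotome in 22 of 22. Other genes of the dermomyotome list did not all follow: Sim1 was higher in Dermomyotome-mapped cells in 19 of 22 and Dmrt2 in 15, but Met was higher in Sclerotome-mapped cells in 14 of 22 (9.47 against 7.13 CPM). The Hox genes also split: Hoxb9 was at 43.8, 129 and 127 CPM and Hoxa7 at 29.0, 77.5 and 92.6 CPM, so Sclerotome-mapped cells held the lowest level of these more posterior Hox genes. Several cell cycle genes split between the names as well. Mki67 was at 185, 265 and 115 CPM, higher in Dermomyotome-mapped than in Sclerotome-mapped cells in 20 of 22. Pcna was at 224, 232 and 352 CPM, higher in Posterior-mapped than in Dermomyotome-mapped cells in 22 of 22. Others, such as Ccnd2 with 191, 181 and 187 CPM, differed little. Mapping used gene levels, so these are descriptions of what the names hold.

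Pairs of genes were counted in single cells. Cells were pooled over the gastruloids of an experiment, so these shares are not per gastruloid and are no test. Among thinned day 5 cells, Uncx was seen in 31.6% (MULTI-seq 1) and 33.8% (MULTI-seq 3), and Tbx18, a factor of the anterior part of a somite, in 7.73% and 5.30%. Tbx18 was seen in 1.35% of cells with an Uncx UMI and 10.7% of cells without in MULTI-seq 1, and in 1.21% and 7.39% in MULTI-seq 3. In Late Spinal Cord cells Tbx18 was seen in 0.123% and 0%, and Uncx in 0.185% and 0.0477%. The sclerotome factors Pax1 and Pax9 went together: Pax9 was seen in 12.2% of Pax1 cells and 4.23% of others in MULTI-seq 1 and in 11.8% and 3.70% in MULTI-seq 3. Pax1 was seen in 7.97% and 5.83% of cells and in 0% of Late Spinal Cord cells of both experiments, and Pax9 in 4.87% and 4.17% against 0.369% and 0%. Myf5, the first muscle factor to be switched on, was seen in 0.730% and 0.846% of cells, against 0% in both sets of spinal cord cells. Nkx3-2, a later sclerotome factor, was seen in 0% and 0.0940%. These are shares of cells with a UMI at 5000 UMIs, and a cell without one may still express the gene.

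Days 4.5 and 5 of MULTI-seq 3 shared a pool and its lanes, so their comparison is free of a pool difference. It used 13 gastruloids of day 4.5 and 16 of day 5. Hox genes, which give cells their position along the body axis, were mostly higher at day 5. Of 39 Hox genes 24 had enough counts for the test, and 17 were higher and 2 lower. The filter kept genes of about 3.08 CPM and more, and Hoxc4, Hoxc5, Hoxc6 and Hoxc8 reached that in at most 1 of 13 gastruloids of day 4.5. They entered through their day 5 level, so the filter fixed their direction and their values are descriptions. With no filter, 31 Hox genes had a UMI and 21 were higher and 2 lower, where 7.15% of all genes passed. In this comparison 13.8% of all 10019 genes tested passed (6.25% higher, 7.55% lower), with a median log2 fold change of 0.00. Results of gene comparisons are from edgeR's quasi-likelihood test with Benjamini-Hochberg adjustment over all genes tested, with a threshold of 0.05.

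The higher Hox genes reached as far as Hoxb9 and Hoxd9, and genes of higher paralog number had too few counts for the test. At day 4.5 Hoxc8 ran from 0 over a median of 0.628 to 3.16 CPM, and at day 5 from 3.55 over 14.85 to 53.3 CPM. The groups did not overlap, for a gene that the filter let in through day 5. Hoxa7, which reached the filter on both days, ran from 1.06 over a median of 6.83 to 12.5 CPM at day 4.5 and from 9.51 over 54.7 to 98.6 CPM at day 5 (log2 fold change 3.08 ± 0.36 SE, adjusted p = 5.42e-07), with 15 of 16 gastruloids of day 5 above all of day 4.5. Hoxb9 went from a median of 10.2 CPM (0 to 23.9) to 79.05 CPM (17.5 to 159), a log2 fold change of 2.82 ± 0.34. Hoxb8 did so from 13.9 CPM (1.90 to 24.5) to 61.0 CPM (30.0 to 92.7) with no overlap, and Hoxa5, of the middle of the cluster, from 9.23 CPM (3.79 to 18.9) to 29.0 CPM (16.0 to 39.3), a log2 fold change of 1.51 ± 0.15. At the anterior end Hoxb1 fell, from a median of 12.5 CPM (7.503 to 39.8) to 5.57 CPM (2.80 to 12.2), with a log2 fold change of −1.17 ± 0.18 (adjusted p = 1.44e-05), and Hoxa2 fell by 0.55 on the log2 scale (adjusted p = 0.00151).

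**Figure D3:**
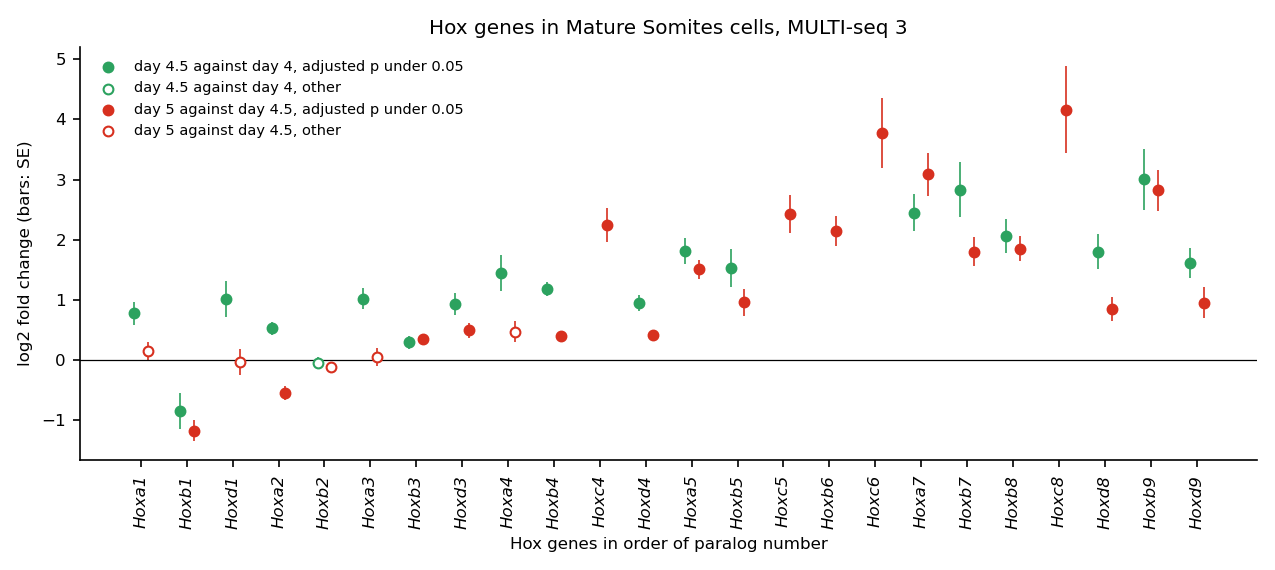
Log2 fold change (± SE) of each Hox gene in Mature Somites cells of MULTI-seq 3 against its paralog number, for day 4.5 against day 4 (green) and day 5 against day 4.5 (red); filled points have an adjusted p under 0.05. Hoxb1 lies below 0 in both steps, and Hoxb9 above 2 in both. The green points of Hoxb9 and Hoxa7 and the red points of Hoxc4, Hoxc5, Hoxc6 and Hoxc8 are descriptions. The count filter let these genes in through the later day.

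Sclerotome genes were a smaller group. Of 8 on the list 7 were tested, and 3 were higher and 1 lower at day 5. Pax1 had a UMI in 3 of 13 gastruloids of day 4.5 (0 to 2.85 CPM) and stood at 1.22 to 49.8 CPM with a median of 10.6 at day 5 (adjusted p = 0.000282), with 14 of 16 above all of day 4.5. Its fitted log2 fold change of 5.10 ± 0.93 rests on those few UMIs, and Pax1 entered the test through its day 5 level, so its call adds no support for a change of the list. With no count filter 2 of the 8 genes were higher and 1 lower. Pax9 rose from a median of 4.00 CPM (0 to 9.98) to 8.22 CPM (1.83 to 18.2, adjusted p = 0.0435), a call that was lost with scaling by total UMIs and with a minimum of 20 cells, and Col2a1, a cartilage collagen, rose by a log2 fold change of 0.48 ± 0.13. Twist1, a factor of mesenchyme, fell, from 209 CPM (145 to 260) to 171 CPM (147 to 234), with a log2 fold change of −0.30 ± 0.07 (adjusted p = 0.00248). Sox9 did not pass (0.33 ± 0.36, adjusted p = 0.638). Scx, the only tendon gene tested, rose from a median of 4.74 to 10.3 CPM (adjusted p = 0.00164).

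Of 10 genes of somite identity, 3 rose and 1 fell, Aldh1a2, whose values are given with the retinoic acid genes. Meox1 went from a median of 365 CPM (226 to 442) to 463.5 CPM (396 to 625), a log2 fold change of 0.42 ± 0.07 (adjusted p = 0.000172). Meox2 went from 20.4 CPM (0 to 53.5) to 43.1 CPM (17.1 to 55.6, adjusted p = 0.005), and Igfbp5 from 242.5 CPM (36.0 to 655) to 378 CPM (296 to 662.5, adjusted p = 0.00621). Pax3 did not pass, with a log2 fold change of −0.13 ± 0.13 (adjusted p = 0.593). Of the 4 tested dermomyotome genes, 1 passed: Met, the receptor that lets muscle progenitors migrate, fell by 0.67 on the log2 scale. The 3 tested myotome genes gave 0 calls by edgeR, with 2 at an unadjusted p under 0.05 and 1 call by DESeq2.

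Genes of retinoic acid, the signal that balances FGF in the forming body axis, went down: 5 of 8 tested fell and 0 rose. Aldh1a2, which makes retinoic acid, fell from a median of 156 CPM (95.04 to 303) to 78.8 CPM (52.7 to 119), with a log2 fold change of −1.01 ± 0.16 (adjusted p = 4.01e-05). Rdh10, the step before it, fell from 96.7 CPM (74.5 to 185) to 46.1 CPM (28.9 to 71.2) without overlap (−1.17 ± 0.15, adjusted p = 1.67e-06). Crabp1, which binds retinoic acid in the cytoplasm, fell from 290 CPM (214 to 1140) to 99 CPM (54.7 to 401), and the receptor Rara fell by 0.39 on the log2 scale. Developmental timing genes, which are high in early embryos and decline together, gave 4 falls among 6: Lin28a, an RNA-binding protein that blocks let-7, fell from 48.4 CPM (32.5 to 68.2) to 34.1 CPM (27.4 to 46.6), and Nr6a1, Prtg and Igf2bp1 also fell, by 0.34, 0.30 and 0.25 on the log2 scale. Among 11 tested genes of insulin-like growth factor signalling 6 rose and 1, Igf2bp1, fell, with Igf2 going from 157 CPM (114 to 218) to 187 CPM (163 to 223, adjusted p = 0.00947). Of 17 tested cell cycle genes 3 rose and 14 did not pass, where 13.8% of all genes passed. Among the 3, cyclin gene Ccnd1 and the cell cycle inhibitor Cdkn1c rose by log2 fold changes of 0.75 ± 0.14 and 0.38 ± 0.08.

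**Figure D4:**
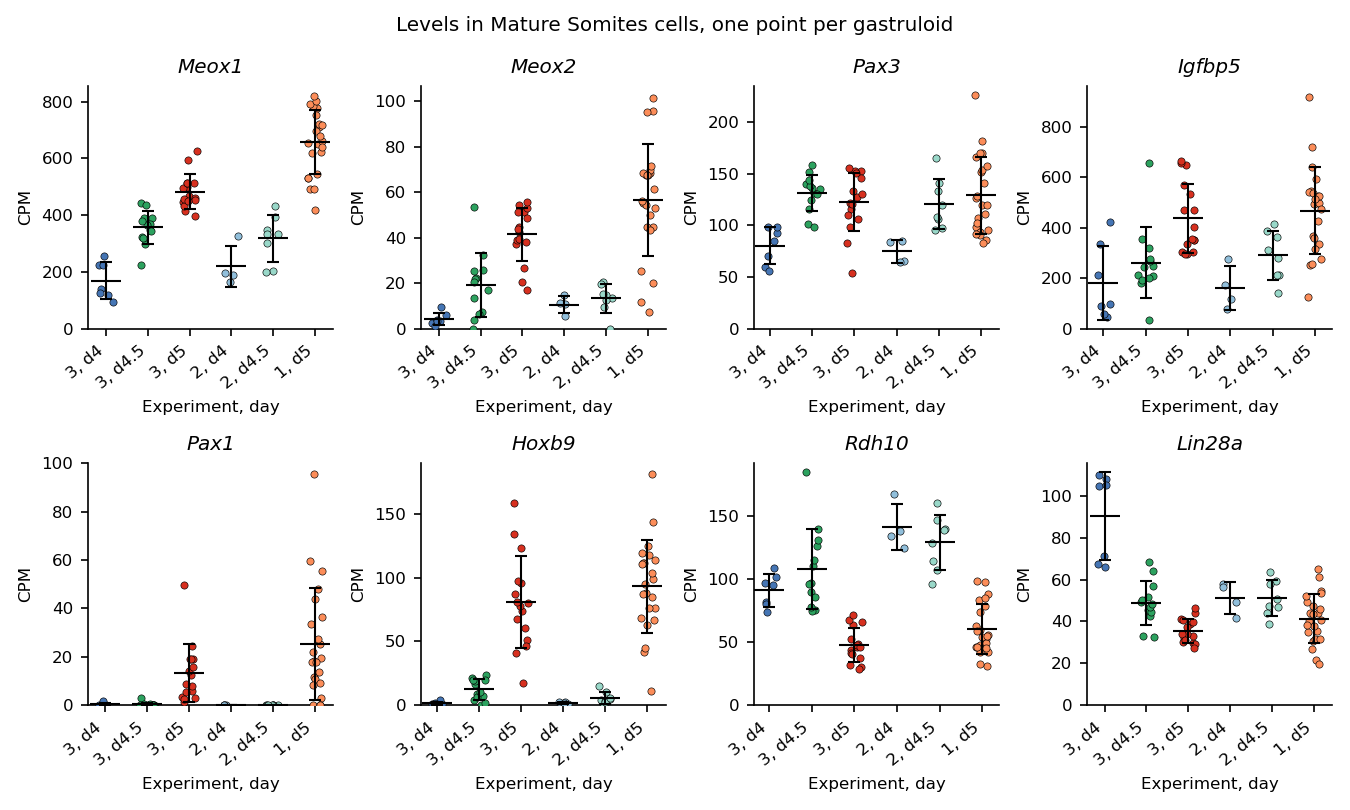
CPM of 8 genes in the Mature Somites cells of single gastruloids (points) with mean ± SD, by experiment and day. Meox1, Meox2 and Hoxb9 are lowest at day 4 in MULTI-seq 3 and Lin28a is highest there, and Pax1 is near 0 before day 5.

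Other genes also changed at day 5, and no theme among them was tested. Slc45a4 had the largest fall among the genes picked by the naming rule given below, 2.39 on the log2 scale. Islr rose by 1.43. Tbx1, a factor of pharyngeal and head mesoderm, fell from 28.8 CPM (7.503 to 55.6) to 9.75 CPM (4.17 to 15.8), with a log2 fold change of −1.75 ± 0.19 (adjusted p = 1.77e-07), and Cer1, a secreted inhibitor of Nodal and BMP, fell by 1.73. Irx3 and Irx5, neighbouring homeobox genes, both fell by 1.40. Cxcl12 rose from a median of 61.8 CPM to 225 CPM (154 to 319), a log2 fold change of 1.60 ± 0.24 (adjusted p = 3.31e-05), although 1 gastruloid of day 4.5 stood at 563 CPM. Bmp3, a BMP family member that opposes bone formation, rose from 14.1 CPM (9.48 to 155) to 49.1 CPM (22.8 to 90.9). Fn1, the fibronectin that surrounds somites, fell by 0.43 on the log2 scale (adjusted p = 5.42e-08). Summed head mesoderm markers went from a median of 422 CPM (300 to 501) to 244 CPM (204 to 349) and cardiopharyngeal markers from 40.5 to 15.1 CPM. Summed neural crest markers went from 39.6 to 74.7 CPM, with Ets1 called higher. Of the neural list Sox2 was called higher and Irx3 lower. The part of these cells or RNA in the other changes was not tested. Limited to cells mapped to Sclerotome, with 9 gastruloids of day 4.5, 318 genes were called. There Igf2 (0.32 against 0.26 over all Mature Somites cells, log2), Lin28a (−0.41 against −0.43), Scx (1.07 against 1.11), Pax9 (0.69 against 0.81) and Pax1 (4.24 against 5.10) lost their calls with folds of a similar size, while Meox1 (0.11 against 0.42) and Meox2 (0.31 against 0.89) lost theirs with smaller ones. So did Twist1 (−0.13 against −0.30), Fn1 (−0.24 against −0.43), Nr6a1 (−0.20 against −0.34), Rara (−0.19 against −0.39), Cdkn1c (0.24 against 0.38), Irx3 (−0.81 against −1.40) and Crabp1 (−1.15 against −1.70). Prtg (−0.26 against −0.30), Ccnd1 (0.51 against 0.75) and Hoxa2 (−0.52 against −0.55) lost the call as well. Sums thinned to the smallest gave 176 calls.

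Between days 4 and 4.5 of MULTI-seq 3 (7 and 13 gastruloids) the change in Mature Somites cells was far broader, and these days came from different pools, so that day and pool cannot be told apart. By the class in the deposited table all 7 of day 4 were mesodermal, while of the 13 of day 4.5 9 were mesodermal and 4 neural, so class also differed with the day. Of 9798 genes 50% passed (23.6% higher, 26.5% lower). With mesodermal gastruloids only (7 and 9, chosen after seeing the data) 4990 of 9835 genes passed. Scaling by total UMIs in place of TMM shifted the median of all genes by about −0.20 and gave 1169 higher of 5514 calls, against 2311 higher of 4903, so directions here are relative to the typical gene. Against that high background, Hox genes again stood mostly on one side: 17 of 19 tested rose and 1 fell. That count includes Hoxb9 and Hoxa7, described below, which the filter let in through day 4.5. With no count filter 24 of 29 rose and 1 fell, where 25.2% of all genes passed. Hoxb4 went from a median of 16.1 CPM (10.8 to 20.3) to 30.4 CPM (17.1 to 46.7), with a log2 fold change of 1.18 ± 0.12 (adjusted p = 3.65e-10), and Hoxb8 from 4.50 CPM (1.55 to 6.09) to 13.9 CPM (1.90 to 24.5). Hoxb9 went from 1.09 CPM (0.445 to 3.63) to 10.2 CPM (0 to 23.9) and Hoxa7 from 1.15 CPM (0 to 2.67) to 6.83 CPM (1.06 to 12.5). Both reached the filter, here 4.34 CPM, in 0 of 7 gastruloids of day 4 and entered through day 4.5, so they are given with no test. Hoxb1 was the gene that fell, from 32.05 CPM (11.4 to 45.7) to 12.5 CPM (7.503 to 39.8), with a log2 fold change of −0.85 ± 0.30 (adjusted p = 0.0244).

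Somite identity genes rose in 6 of 10 cases and fell in 1, where 23.6% of all genes rose and 26.5% fell. Meox1 went from 139 CPM (95.5 to 257) to 365 CPM (226 to 442), with 12 of 13 gastruloids of day 4.5 above all of day 4 (log2 fold change 1.21 ± 0.17, adjusted p = 8.35e-06). Meox2 went from 3.39 CPM (1.34 to 9.71) to 20.4 CPM (0 to 53.5), Pax3 from 85.3 CPM (56.3 to 98.9) to 135 CPM (98.8 to 158) and Tcf15 from 485 CPM (420 to 737) to 794 CPM (668 to 1080). So 3 of the 4 marker genes of the type were lower in the Mature Somites cells of day 4. Meox2 reached the filter in 2 of 7 gastruloids of day 4 and Tbx18, below, in 1 of 7, so the filter favoured their direction. Of 5 tested genes of the anterior and posterior parts of a somite 3 rose (Tbx18, Uncx and Dll1) and 0 fell, a count near the 50% of all genes that passed. Tbx18 went from 2.17 CPM (0 to 7.01) to 10.4 CPM (0 to 21.4), and Uncx from 40.2 CPM (19.1 to 56.2) to 67.9 CPM (31.1 to 415, adjusted p = 0.0311), a call lost with scaling by total UMIs and, with the sign turned, in Sclerotome-mapped cells. Dmrt2 rose by a log2 fold change of 1.20 ± 0.29, but with cells named Somites added its change was −0.18.

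All 6 developmental timing genes fell between these pools, while in MULTI-seq 2, within 1 pool, 0 of the 6 passed by edgeR or by DESeq2, with 1 at an unadjusted p under 0.05 and a median log2 fold change of −0.07. Nr6a1, a nuclear receptor that marks the trunk-forming period, fell from 147.5 CPM (143 to 162) to 60.7 CPM (49.0 to 83.8) without overlap, with a log2 fold change of −1.08 ± 0.06 (adjusted p = 2.45e-18). Lin28a fell from 105 CPM (66.1 to 110) to 48.4 CPM (32.5 to 68.2), a log2 fold change of −0.64 ± 0.14. Of 6 tested BMP genes 5 fell, where 50% of all genes passed. Among them Bmp4 reached the count filter mainly through day 4, so the filter favoured its direction (values given below). Id3 and Id1, direct targets of BMP signals that block helix-loop-helix factors, went from medians of 467 CPM (134 to 619) and 134 CPM (37.9 to 197) to 162 CPM (9.48 to 257) and 54.4 CPM (10.6 to 68.3), with adjusted p = 0.0221 and 0.0228. In Sclerotome-mapped cells alone, with 3 gastruloids of day 4, Id3 and Id1 took the other sign, 0.32 and 0.13. Among the 9 tested retinoic acid genes 3 rose and 3 fell.

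Several factors used by more anterior mesoderm fell. Prdm1, a transcriptional repressor, fell from 29.5 CPM (18.9 to 38.7) to 4.99 CPM (0 to 10.4), the homeobox gene Irx3 from 75.15 CPM (46.7 to 86.0) to 21.4 CPM (10.8 to 38.5), and Tbx1 from 93.8 CPM (69.5 to 106) to 28.8 CPM (7.503 to 55.6), none with overlap. Prrx2 fell from 616 CPM (500.5 to 658) to 390 CPM (298 to 460). Marker lists of other types moved with the day: all 3 tested cardiopharyngeal, all 3 lateral plate and all 3 endoderm markers fell, and of 4 head mesoderm markers 3 fell and 1 rose. Of 3 tested neural markers 2 fell (Irx3 and Sox2), with summed medians of 102.5 and 38.1 CPM. Endothelial Etv2 and Egfl7 rose, as did Ets1 of the neural crest list, whose summed median went from 22.85 to 39.6 CPM. Summed levels were 113 to 145 CPM at day 4 against 9.48 to 66.3 CPM at day 4.5 for cardiopharyngeal, 558 to 717 against 300 to 501 CPM for head mesoderm, and 19.95 to 71.75 against 0 to 19.99 CPM for lateral plate markers. The part of such cells or RNA in the changes above was not tested. Other genes that rose without overlap were Mest, an imprinted gene of mesoderm, from 133 CPM (88.8 to 249) to 300.5 CPM (261 to 1068), and Hotairm1, a noncoding RNA at the anterior end of the HoxA cluster, from 30.6 CPM (20.5 to 40.2) to 80.3 CPM (57.3 to 110).

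MULTI-seq 2 gave the same step of days within 1 pool, with 4 gastruloids of day 4 and 8 of day 4.5, and there few genes passed. By class all 4 of day 4 were mesodermal, and of the 8 of day 4.5 7 were mesodermal and 1 neural. Of 9020 genes 0.499% passed, 16 higher and 29 lower, with 912 genes at an unadjusted p under 0.05 and 50 calls by DESeq2. Of 9 tested Hox genes 0 passed by edgeR, with 2 at an unadjusted p under 0.05 and 0 by DESeq2. Of 10 somite identity genes 0 passed, with 4 at an unadjusted p under 0.05 and 2 by DESeq2. Pax3 stood at 64.7 to 84.8 CPM at day 4 and 95.3 to 166 CPM at day 4.5, without overlap, but its log2 fold change of 0.61 ± 0.18 did not pass (adjusted p = 0.234); the difference from MULTI-seq 3, 0.24 ± 0.22, did not pass either (interaction term, adjusted p = 0.508). Meox1 and Meox2 had log2 fold changes of 0.46 ± 0.27 and 0.45 ± 0.25 and did not pass either (adjusted p = 0.618 for Meox1). Among the genes that passed, 4 with a role in making lipids fell. Idi1 of the sterol pathway went from 160 to 193 CPM down to 94.5 to 148 CPM (log2 fold change −0.61 ± 0.09, adjusted p = 0.000191). Dhcr7 of the same pathway fell by 0.74 and the fatty acid desaturase Scd1 by 0.68 on the log2 scale. Mid1ip1, an activator of fatty acid synthesis, went from 40.9 to 60.3 CPM down to 17.1 to 33.3 CPM (−1.19 ± 0.14, adjusted p = 2.94e-06). These 4 were picked out after their values were seen, and no list of lipid genes was tested. Igf1r, the receptor of insulin-like growth factors, rose by a log2 fold change of 0.51 ± 0.11 and was the 1 listed gene to pass. The count of 45 was 20, 18, 18 and 92 when day 4 gastruloids 1 to 4 were left out in turn, and 15 without lane 3 of the pool.

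The experiments were compared directly. The day 4.5 against day 4 change differed between MULTI-seq 3 and MULTI-seq 2 in 19.4% of 10049 genes by an interaction term in edgeR's quasi-likelihood fit. Nr6a1 was one, with a difference of −0.96 on the log2 scale (adjusted p = 1.83e-08), Tcf15 another, with 0.91 (adjusted p = 0.00403). Hox genes did not pass: Hoxa7 differed by 1.26 ± 0.97 (adjusted p = 0.403), so their change is not shown to differ between the experiments. Of the 45 genes called in MULTI-seq 2, 28 were called in MULTI-seq 3, 19 in the same direction and 9 in the opposite one. The 19 are 42.2% of the one list and 0.408% of the other. Of the 8990 genes tested in both experiments 4658 were called in MULTI-seq 3, so the 28 of 45 stand beside a high background. The 2 fits had the same sign for 54.2% of the genes called in MULTI-seq 3 and for 52.8% of all genes tested in both.

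At day 5 the deposited table sorts gastruloids by cell makeup into neural, mesodermal and intermediate classes. Mature Somites cells of 11 neural gastruloids (7 of MULTI-seq 1, 4 of MULTI-seq 3) were compared with those of 15 mesodermal ones (7 and 8), with the experiment as a covariate. The classes are taken to rest on the shares of cell types. Those types, Mature Somites among them, were drawn from gene levels, so the classes may not be fully independent of the levels compared. Neural gastruloids held fewer Mature Somites cells, with a median of 38 against 152 per gastruloid and 459311 against 2206161 UMIs over both experiments. The medians were 29 against 123 cells in MULTI-seq 1 and 128 against 240 cells in MULTI-seq 3. Of 8955 genes 15.5% passed, 8.11% higher and 7.37% lower in neural gastruloids. The change between classes differed between the 2 experiments in 1 of 9826 genes (0.0102%) by an interaction term, Hsp90b1, a chaperone.

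Several Notch genes were higher in Mature Somites cells of neural gastruloids. Of 8 tested genes of the presomitic and oscillator list 5 were higher (Heyl, Nrarp, Notch1, Dll3 and Hey1) and 0 lower, and the ligand Dll1 and the oscillator Hes7 were among the 3 that did not pass. The count filter let Heyl in mainly through the neural gastruloids and favoured its direction, so its call adds no support (counts given below). Heyl, a transcriptional target of Notch (chromosome 4, 123233556 to 123249875), was at 2.10 to 12.6 CPM with a median of 4.53 in mesodermal and at 11.1 to 66.4 CPM with a median of 26.7 in neural gastruloids. The log2 fold change was 2.13 ± 0.22 (adjusted p = 2.56e-07), with 10 of 11 neural gastruloids above all mesodermal ones. Nrarp was at 8.04 to 30 CPM with a median of 12.4 against 16.3 to 99.7 CPM with a median of 30.0 (1.12 ± 0.14, adjusted p = 3.47e-07). Notch1 itself, at 58.3 to 104.5 against 116 to 252.5 CPM, did not overlap (0.92 ± 0.09, adjusted p = 1.58e-07). Dll3 and Hey1 were higher by 0.83 ± 0.22 and 0.49 ± 0.12. In MULTI-seq 3 alone neither passed, with 0.48 for Dll3 (adjusted p = 0.072) and 0.40 for Hey1 (adjusted p = 0.0762), and Dll3 did not pass in Sclerotome-mapped cells either (adjusted p = 0.0654).

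Of 4 tested dermomyotome genes 2 were higher in neural gastruloids, Dmrt2 and Met, and 0 were lower. Met entered the test mainly through the neural gastruloids, so its call adds no support. Dmrt2 was at 11.3 to 48.0 CPM with a median of 30.4 in mesodermal and 32.7 to 113 CPM with a median of 83.2 in neural gastruloids (log2 fold change 1.53 ± 0.21, adjusted p = 1.27e-05), and Tcf15 had medians of 574 and 745 CPM (0.50 ± 0.09, adjusted p = 0.000354). Sox9 was lower, at 4.28 to 26.6 CPM with a median of 8.71 in neural against 12.2 to 85.1 CPM with a median of 55.9 in mesodermal gastruloids (−2.10 ± 0.31, adjusted p = 4.37e-05). Of the 7 tested sclerotome genes Sox9, Pax1 and Col2a1 were lower and Foxd1 higher. Pax1 entered mainly through the mesodermal gastruloids, so the filter favoured its direction too. Col2a1 (−0.33, adjusted p = 0.0113) gave −0.91 in MULTI-seq 1 (adjusted p = 0.000933) and did not pass in MULTI-seq 3, with −0.19 (adjusted p = 0.164). Pax1 (−1.68 ± 0.56, adjusted p = 0.0427) did not pass in either experiment alone, with −0.67 in MULTI-seq 1 (adjusted p = 0.742) and −2.25 in MULTI-seq 3 (adjusted p = 0.0987). Twist2, a factor of dermis and mesenchyme, was at 18.6 to 37.8 CPM in mesodermal and 3.62 to 19.9 CPM in neural gastruloids (−1.47 ± 0.13, adjusted p = 1.59e-11). Meox2 was lower too, with medians of 54.3 and 25.3 CPM (−0.86 ± 0.16, adjusted p = 0.000419), whereas Meox1 (−0.19 ± 0.08, adjusted p = 0.107) and Pax3 (0.36 ± 0.15, adjusted p = 0.115) did not pass. Pax3 did pass in MULTI-seq 1 alone, with 0.46 (adjusted p = 0.00689).

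Of 4 tested BMP genes the 3 Id genes were lower. Id2 (chromosome 12, 25093799 to 25097140) was at 34.85 to 240 CPM with a median of 107 in mesodermal and at 10.9 to 65.85 CPM with a median of 19.9 in neural gastruloids (log2 fold change −1.76 ± 0.35, adjusted p = 0.000886). Id3 (chromosome 4, 136143497 to 136145755) was at 109 to 326 CPM with a median of 176 against 18.1 to 153 CPM with a median of 49.0 (−1.26 ± 0.26, adjusted p = 0.0016). Id1 had medians of 61.7 and 26.1 CPM (−0.75 ± 0.23, adjusted p = 0.0293). The groups overlapped for each. In the experiments alone Id2 gave −2.13 in MULTI-seq 1 (adjusted p = 0.0247) and −1.65 in MULTI-seq 3 (adjusted p = 0.076), and Id3 gave −1.10 (adjusted p = 0.187) and −1.32 (adjusted p = 0.0459), so directions held in both and each passed in 1. Id1 passed in neither.

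The promoters of Id2 and Id3 are shown because both genes moved together here and are known targets of SMAD proteins, which carry the BMP signal and can bind the GC-rich element GGCGCC. The windows run from 250 bases before to 50 after the start of the gene (RefSeq, GRCm38.p6): chr12:25096043-25096342 on the minus strand for Id2 and chr4:136143572-136143871 on the plus strand for Id3. RefSeq's starts lie inside the GENCODE gene bounds given above, which reach farther upstream, so the 2 annotations differ on where these genes begin. They are written 5′ to 3′ in the direction of transcription, with matches to GGCGCC in capitals; that motif reads the same on both strands.
Id2: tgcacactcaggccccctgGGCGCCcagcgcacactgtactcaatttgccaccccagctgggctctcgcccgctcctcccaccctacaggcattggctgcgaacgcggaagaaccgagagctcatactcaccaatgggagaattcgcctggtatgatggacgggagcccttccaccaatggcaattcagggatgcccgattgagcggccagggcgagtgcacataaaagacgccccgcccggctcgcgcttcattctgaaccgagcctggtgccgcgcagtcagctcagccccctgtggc
Id3: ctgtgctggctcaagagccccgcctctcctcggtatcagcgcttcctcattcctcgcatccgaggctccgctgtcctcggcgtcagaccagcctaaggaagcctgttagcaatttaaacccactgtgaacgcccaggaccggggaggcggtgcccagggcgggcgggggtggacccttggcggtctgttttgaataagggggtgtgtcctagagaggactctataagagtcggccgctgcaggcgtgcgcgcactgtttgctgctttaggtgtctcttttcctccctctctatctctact
The Id2 window holds 1 match and the Id3 window 0, and 11.9% of 32850 promoters of that length hold at least 1. A match is a description of letters and says nothing of binding in these cells.

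**Figure D5:**
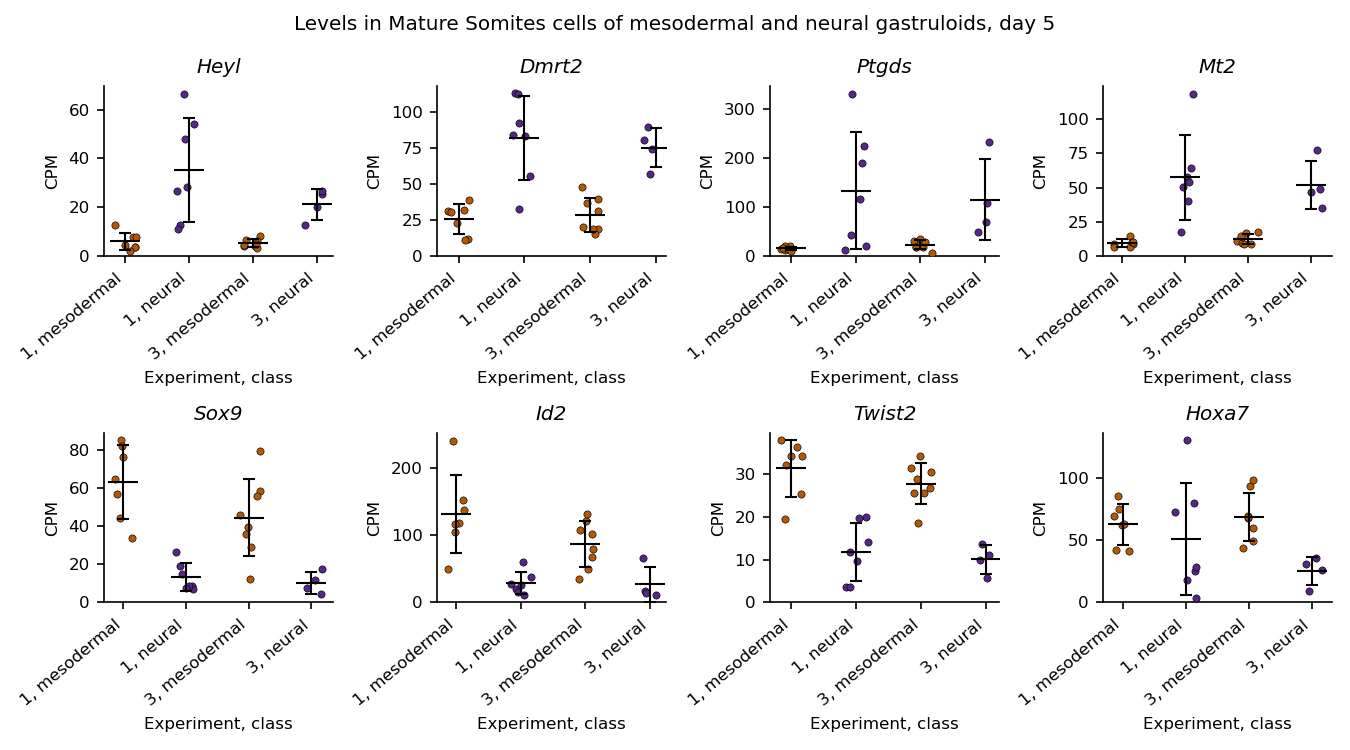
CPM of 8 genes in Mature Somites cells of day 5 gastruloids that the deposited table calls mesodermal or neural, by experiment; points are gastruloids and bars give the mean ± SD. Heyl, Dmrt2, Ptgds and Mt2 are higher and Sox9, Id2 and Twist2 lower in neural gastruloids in both experiments, while the log2 fold change of Hoxa7 is −1.41 in MULTI-seq 3 and −0.12 in MULTI-seq 1. The count filter favoured the direction of Heyl.

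In the fit over both experiments 8 of 22 tested Hox genes were lower in neural gastruloids, among them Hoxa7 and Hoxb9, and 2 were higher. Hoxa7 was at 41.6 to 98.6 CPM with a median of 68.0 in mesodermal and 3.71 to 131 CPM with a median of 28.95 in neural gastruloids (log2 fold change −1.06 ± 0.27, adjusted p = 0.00806). In the experiments alone it gave −1.41 in MULTI-seq 3 (adjusted p = 0.0189) and −0.12 in MULTI-seq 1 (adjusted p = 0.921). Hoxb9 gave −1.25 (adjusted p = 0.0484) and −0.17 (adjusted p = 0.843). The difference between the experiments did not pass for either gene (interaction term, adjusted p = 0.7 for Hoxa7 and 0.757 for Hoxb9). Hoxb1, at the anterior end, was higher by 0.61 ± 0.17 (adjusted p = 0.00669).

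Other large increases in neural gastruloids were in genes of other functions. Ndufa4l2, related to a subunit of the respiratory chain, was at 0 to 7.25 CPM with a median of 1.84 in mesodermal and 4.89 to 57.6 CPM with a median of 15.75 in neural gastruloids (log2 fold change 2.68 ± 0.33, adjusted p = 2.79e-06). It reached the filter, here 6.06 CPM, in 2 of 15 mesodermal gastruloids and entered through the neural ones. The same held, with 6 or 7 of 15, for Heyl, Met, Slc2a3 and Anxa2, and Pax1 reached it in 3 of 11 neural gastruloids, so for these genes the filter favoured the direction found. Anxa2, a membrane-binding annexin, had medians of 5.99 and 32.6 CPM (2.56 ± 0.31, adjusted p = 2.75e-06). Ptgds, a prostaglandin synthase, was at 6.64 to 35.4 CPM with a median of 17.85 in mesodermal and 13.1 to 331.5 CPM with a median of 108 in neural gastruloids (2.58 ± 0.35, adjusted p = 1.25e-05). The metallothionein Mt2, which binds metal ions, was at 6.30 to 17.2 against 17.4 to 119 CPM, without overlap (2.20 ± 0.20, adjusted p = 4.02e-08), and Mt1 was higher too (2.08 ± 0.23). The glucose transporters Slc2a3 and Slc2a1 were higher by 1.87 ± 0.20 and 0.98 ± 0.10. Of 15 tested matrix genes 10 were higher and 2 lower, among them the basement membrane collagens Col4a1, at 71.4 to 124 against 108 to 194 CPM (0.71 ± 0.09, adjusted p = 3.27e-06), and Col4a2 (0.73 ± 0.09). Retinoic acid genes were higher in 4 of 7 cases and lower in 0: Crabp1 had medians of 87.6 and 222 CPM (1.46 ± 0.26, adjusted p = 0.000259), Rdh10 was higher by 0.70 ± 0.14 and Stra6, which takes up retinol, by 0.87.

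Several measures move with this comparison. Summed neural markers in the Mature Somites cells were 18.4 to 65.5 CPM (median 28.1) in mesodermal and 19.9 to 70.5 CPM (median 34.2) in neural gastruloids, and summed presomitic markers 14.4 to 29.6 CPM (median 19.6) against 18.1 to 112 CPM (median 30.5). Marker sums by class pool the 2 experiments in unequal numbers. Over all day 5 gastruloids the neural medians were 39.2 CPM in MULTI-seq 1 and 26.0 CPM in MULTI-seq 3. The presomitic medians were 28.1 and 20.2 CPM. Summed neural crest markers were 71.4 to 115 CPM (median 80.1) in mesodermal and 18.55 to 113 CPM (median 44.0) in neural gastruloids, and Ets1, the 1 of them tested, was called lower. Of cells in neural gastruloids 42.7% (MULTI-seq 1) and 43.7% (MULTI-seq 3) mapped to Sclerotome, against 38.1% and 33.7% in mesodermal ones. Posterior somitic tissues took 13.7% and 17.5% in neural against 9.98% and 28.2% in mesodermal gastruloids, and Dermomyotome 21.0% and 23.6% against 30.5% and 26.8%. These differences were not tested. Within Sclerotome-mapped cells alone Sox9 (−2.23), Id2 (−1.70), Id3 (−1.23) and Dmrt2 (1.75) still passed. Hoxa7 (−1.19, adjusted p = 0.14), Pax1 (−1.62, adjusted p = 0.086), Id1 (−0.74, adjusted p = 0.0968) and Col2a1 (−0.29, adjusted p = 0.129) did not, with folds close to those over all Mature Somites cells. Thinned to the smallest sum, 129 genes were called, and the part of depth in the longer list was not tested.

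Mature Somites cells of day 5 also differed between experiments, with 16 gastruloids of MULTI-seq 3 and 23 of MULTI-seq 1. Of 8945 genes 53.9% passed (23.9% higher and 30% lower in MULTI-seq 3), at median sums of 5964721 and 829557 UMIs. Experiment, culture, library and depth cannot be told apart. Scaling by total UMIs gave 1043 higher of 6145 calls and shifted the median of all genes by about −0.23. Large differences were found in genes with no particular tie to somites, and the other cells of the same gastruloids shared them. Arf5, a vesicle traffic gene, was at 19.9 to 86.8 CPM in MULTI-seq 1 and 242 to 292.5 CPM in MULTI-seq 3 (log2 fold change 2.50 ± 0.05, adjusted p = 1.04e-56), with means of 48.9 and 262 CPM in other cells. The histone gene Hist1h4h was at 0 to 7.23 against 55.6 to 81.0 CPM, with means of 2.91 and 58.5 CPM in other cells. Histone genes have near-identical copies, so the value of Hist1h4h is uncertain, and it reached the filter of 6.31 CPM in 1 of 23 gastruloids of MULTI-seq 1.

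Somite genes differed by less. Tcf15 was at 326 to 911 CPM with a median of 575 in MULTI-seq 1 and 574 to 1006 CPM with a median of 730.5 in MULTI-seq 3 (log2 fold change 0.63 ± 0.10, adjusted p = 1.19e-06). Meox1 was below its level in MULTI-seq 1, with medians of 662 (419 to 819) and 463.5 CPM (396 to 625, log2 difference −0.29 ± 0.06, adjusted p = 0.000158). The 7 tested sclerotome genes gave 0 calls by edgeR, with 1 at an unadjusted p under 0.05 and 0 by DESeq2, where 53.9% of all genes passed. Of 23 tested Hox genes 8 were lower and 1 higher in MULTI-seq 3, with Hoxd4 lower by 0.77 on the log2 scale and Hoxa5 higher by 0.49 ± 0.12. The imprinted growth-linked RNA H19 was lower by 2.11 ± 0.39 on the log2 scale (adjusted p = 1.56e-05), a gene that reached the filter in 5 of 16 gastruloids of MULTI-seq 3. Of 17 cell cycle genes 9 were lower and 2 higher, Pcna by a log2 fold change of −0.31 ± 0.04.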

How the data were processed

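Mouse gastruloids were measured by 10x Chromium 3′ v3.1 single-cell RNA-seq. The authors deposited raw UMI count matrices per lane and a table of final cells. Cell Ranger 6.0.0, Seurat and mm10 are named per the submitters' processing notes, while annotation and cell filters are not stated there. Columns of the table other than counts (lane, cell type, barcode call, day, gastruloid class, mapped embryo type and stage) were used as the authors deposited them. Coordinates are from GENCODE vM21 on mm10. The members and gene lists were chosen with earlier results of these data known.

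UMI counts of Mature Somites cells were summed per gastruloid over lanes (at least 10 cells), filtered (filterByExpr, minimum count 10), scaled by TMM and tested by edgeR 4.0.16 (robust quasi-likelihood, limma 3.58.1, R 4.3.3). Standard errors are the size of the log2 fold change divided by the root of F. Gastruloids were separate aggregates but of 1 cell line, so p-values measure the spread between aggregates. Shares and stages were tested by two-sided permutation (100000 resamples, exact where a group was under 10; SciPy 1.17.1, NumPy 2.4.6, pandas 2.3.3, Python 3.11.15). The lanes of the 10X experiment and pool C of MULTI-seq 2 had no gastruloid calls and entered no comparison. No doublet caller was run; barcode doublets were left out. The 9 cells of the table with no matrix column were dropped.

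Genes named are the 10 largest fold changes in each direction with adjusted p under 0.05 and a mean of at least 20 CPM in the higher group, members of the lists, and the 15 genes of highest ratio to other cells with a median of at least 50 CPM. Predicted, Rik and mitochondrial genes were left out. From these, the text describes those that carry each comparison. Some genes that meet the rule are not reported here. Promoters were found in RefSeq for 73 of 111 such genes. On simulated counts with 200 changed genes, 2-fold changes were recovered in 98% (day 5 against 4.5), 95% (day 4.5 against 4, MULTI-seq 3), 79% (the same in MULTI-seq 2), 100% (experiments) and 98% (classes) of cases. False calls were 6.32% of calls in MULTI-seq 2 and 2.94% to 4.76% in the others. Equal numbers of genes went up and down, and the class fit had no experiment term. The simulation therefore does not cover comparisons in which a large part of all genes passed. Alternatives were DESeq2 1.42.0, other scalings, filters, cell minimums, thinning, leaving out lanes or gastruloids, and subsets of cells.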

Additional observations from a re-analysis of the deposited data

Results flagged for a closer look

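In groups of 4 to 10 gastruloids 74 values were screened for a single gastruloid far from the rest, and 6 stood out; chance marks about 1 in 20 such groups. At day 4 in MULTI-seq 3 the highest gastruloid lay far above the next for 4 genes of Mature Somites cells: Epha2 at 32 CPM (next 22.9), Hoxb9 at 3.63 CPM (next 1.27), Mest at 249 CPM (next 143) and Nnat at 158 CPM (next 41.0). At day 4.5 in MULTI-seq 2 the same held for Hoxb1 at 68.7 CPM (next 23.3) and Sox11 at 674 CPM (next 569).

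The step from day 4 to day 4.5 differed between MULTI-seq 3 and MULTI-seq 2 for 12 named genes by the interaction term of edgeR's quasi-likelihood test (MULTI-seq 3 minus MULTI-seq 2, log2). Of the genes named for MULTI-seq 3, the change was lower there by −2.31 for Prdm1, −1.20 for Rspo1, −1.10 for Epha2, −0.98 for Irx3 and −0.96 for Nr6a1. It was higher by 1.22 for Plch1, 0.91 for Tcf15 and 0.84 for Hotairm1. Of the genes named for MULTI-seq 2, it differed by 0.64 for Dhcr7, 0.53 for Ier5, −0.58 for Igf1r and −0.64 for Hbp1. In MULTI-seq 3 the days lay in different pools and in MULTI-seq 2 in one, so pool and experiment cannot be told apart.

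Lanes without gastruloid calls also held Mature Somites cells. They made up 9.10% of the cells of the 10X lane of day 4 (exact Clopper-Pearson 95% interval 7.99% to 10.3%, counting error only). That interval leaves out the spread between gastruloids, which could not be measured in that lane. In pool C of MULTI-seq 2, days 4 and 4.5, the share was 10.4% (533 of 5106 cells). Pooled levels in the 10X lane and in pool C were 334 and 354 CPM of Meox1, 11.4 and 21.0 CPM of Meox2 and 115 and 106 CPM of Pax3.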

How the results depend on the processing

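No paired analysis was possible because lane numbers name technical splits of different pools and pair no gastruloids. Calls of genes were counted again under each setting. Thinning every sum to the smallest left 176 genes (day 5 against 4.5), 1825 (day 4.5 against 4, MULTI-seq 3), 6 (MULTI-seq 2), 1058 (experiments) and 129 (classes), with fewer genes tested. Sclerotome-mapped cells alone gave 318, 1609, 2857 and 489, without MULTI-seq 2, which could not be fitted, and MULTI-seq 1 alone gave 309 for the classes. The 45 calls of MULTI-seq 2 became 137 with no count filter, 95 with a minimum of 20 cells, 95 with mesodermal gastruloids only (chosen after seeing the data) and 15 to 92 when a lane or a day 4 gastruloid was left out. Leaving out lanes gave 1005 to 1016, 4423 to 4756, 3854 to 4536 and 1059 to 1266 calls in the other comparisons.

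The paraxial share in MULTI-seq 2 moved to 15.37 points without the early PSM types, 9.338 with Somites and Mature Somites only, and 18.74 to 30.16 by lane. The stage step there was 0.1448 to 0.1563 by lane and lost its call without lane 2. As a percentage of cells at the latest stage, the differences were 0.01031 (day 5 against 4.5), 1.033 and 0.1852 (day 4.5 against 4, MULTI-seq 3 and 2) and 0.7883 (experiments), with the calls lost for day 5 against 4.5 and for MULTI-seq 2. The relation with the neural share in MULTI-seq 1 was −0.232 with 50 paraxial cells and −0.1429 to −0.07872 by lane. Of 2445 values of 160 named results, 2252 kept direction and call, 184 lost the call, 5 gained one and 4 turned, all for day 4.5 against 4 in MULTI-seq 3: Dmrt2 with Somites cells (−0.1846), and Id1 (0.1337), Id3 (0.3244) and Uncx (−0.1793) in Sclerotome-mapped cells. The cause was not tested.

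Sums of 150517 UMIs hold few counts of genes such as Pax1, so their absence from a call is no sign of equal levels.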

Other observations

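The Wnt, Hedgehog and BMP lists were also counted in Mature Somites cells (edgeR's quasi-likelihood test). Between days 4 and 4.5 of MULTI-seq 3, where 50% of all genes passed, 5 of 10 tested Wnt genes fell (Sp5, Sfrp1, Wnt5a, Tcf7 and Lef1) and Nkd1, a Wnt inhibitor, rose, while 3 of 7 tested Hedgehog genes rose and 0 fell. Both counts lie near the share over all genes. The ligands Bmp4, at the count filter in 3 of 13 gastruloids of day 4.5, and Bmp7 fell by 0.89 and 0.80 on the log2 scale (adjusted p = 0.021 and 0.000232). In MULTI-seq 2 the Wnt, Hedgehog and BMP lists gave 0 calls by edgeR and by DESeq2, with 6, 3 and 0 genes at an unadjusted p under 0.05.

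Between the day 5 classes 15.5% of all genes passed (8.11% higher in neural gastruloids). Of 9 tested Wnt genes 3 were higher there (Axin2, Wnt5a and Nkd1) and 0 lower. Nbl1, a secreted BMP antagonist, was higher by 2.06 ± 0.24 (SE, log2, adjusted p = 1.62e-06). It reached the count filter in 2 of 15 mesodermal gastruloids and entered through the neural ones, so the filter favoured this direction. Vtn, a matrix glycoprotein, was higher by 1.60 ± 0.23, and Sparc, a protein that binds collagen, by 0.87 ± 0.14. Fgf18, a growth factor of skeletal tissue, was lower (log2 fold change −1.33 ± 0.25, adjusted p = 0.000602), as was Nrp1, a receptor of semaphorins and VEGF (−1.02 ± 0.19, adjusted p = 0.000378).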
